A study of Mus musculus with 36 samples.

Results

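The nuclear receptors described here were the 10 genes *Rara*, *Rarb*, *Rarg*, *Nr1h2*, *Nr1h3*, *Vdr*, *Thra*, *Thrb*, *Ppara* and *Ppard*, chosen by name as receptors that bind DNA as a partner of a retinoid X receptor (RXR), out of 55536 genes listed in the count tables. The choice was made by name, with earlier results of these data known. RNA sequencing was performed on brown pre-adipocyte lines from mouse at days 0, 2 and 6 of differentiation. The lines derived from 2 clones, 48 and 66, in which Cas9 had disrupted *Rxra* (Rxra-/-), each clone grown from 1 cell, and into which a retrovirus had put back either wild type RXRα (*Rxra*WT) or a form in which serine 22 was changed to alanine (*Rxra*SA). All 12 groups thus shared the disrupted *Rxra* gene and an *Rxra* vector, and no line without a vector was analysed here. The groups were RxraWT and RxraSA in clone 48 and in clone 66 at each of the 3 days, with 3 libraries each and 36 libraries in all. Clone 48 was sequenced in one pool and clone 66 in another, so clone and pool cannot be told apart. The differentiation medium held insulin and triiodothyronine, a ligand of the thyroid hormone receptors, throughout, and dexamethasone, isobutylmethylxanthine and indomethacin up to day 2.

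Each of these receptors needs RXR to bind its DNA sites well. The pair sits on 2 copies of a 6-base half-site, and the spacing between the copies favours one partner over another. Retinoic acid receptors (RARα, RARβ and RARγ, from *Rara*, *Rarb* and *Rarg*), the vitamin D receptor (*Vdr*) and the thyroid hormone receptors (*Thra* and *Thrb*) respond to hormones made from vitamins or in the thyroid gland. The liver X receptors LXRα and LXRβ (*Nr1h3* and *Nr1h2*) respond to oxidised cholesterol, and PPARα and PPARδ (*Ppara* and *Ppard*) to fatty acids. In fat cells the most studied partner of RXR is PPARγ, the driver of adipogenesis, which is not among the 10 genes.

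Total counts ran from 11351078 to 24349263 per library, with a median of 18338726. *Rxra* was read in every library, with 1851 to 11489 counts, which do not separate the vector from the edited gene or alanine from serine. The summed level of 5 adipocyte markers (*Adipoq*, *Fabp4*, *Plin1*, *Cebpa* and *Lipe*) was 40.9 to 103.5 TPM (transcript counts per length of exon, scaled to the same sum in each library) at day 0, 1879 to 3977 at day 2 and 4500 to 8704 at day 6. The 6 brown adipocyte markers summed to 4.996 to 23.3 TPM at day 0, 6.92 to 39.6 TPM at day 2 and 203.0 to 336.6 TPM at day 6. The rise was uneven. From day 0 to day 6 *Cox8b* rose 374-fold, *Cidea* 23.4-fold from at most 3 counts, *Ebf2* 2.35-fold and *Ppargc1a* 1.55-fold. *Cidea* passed the filter on low counts through the later days, so its direction was partly fixed by the filter. *Prdm16* and *Ucp1* did not pass the filter on low counts, and *Ucp1*, the defining gene of brown fat, had at most 5 counts in any library. The sum of 5 pre-adipocyte markers was 157.2 to 368.0 TPM at day 0 and 18.6 to 72.0 TPM at day 6, and *Dlk1* had at most 3 counts in every library. Macrophage markers summed to 4.56 to 27.9 TPM, endothelial markers to at most 0.403 TPM and skeletal muscle markers to at most 19.3 TPM, with *Adgre1*, *Ptprc*, *Cdh5*, *Kdr*, *Myod1*, *Ckm* and *Myh4* at 3 counts or fewer in every library. In bulk samples a change in the number of cells of a type and a change in RNA per cell cannot be told apart, and the part of maturing fat cells in the values below was not tested.

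The genes are spread over 6 chromosomes of the GRCm38 build. *Rara* lies at chr11:98927818-98974942 on the plus strand, and *Thra* on the same strand at chr11:98740638-98769006. *Rarb* lies at chr14:16430839-16819156 on the minus strand and *Thrb* at chr14:17660261-18038090 on the plus strand. Chromosome 15 holds *Ppara* at chr15:85734983-85802819 on the plus strand, and *Vdr* at chr15:97854425-97910630 and *Rarg* at chr15:102234938-102257517 on the minus strand. *Nr1h3* lies at chr2:91184061-91202834 and *Nr1h2* at chr7:44549616-44553951, both on the minus strand, and *Ppard* at chr17:28232700-28301474 on the plus strand. Exons of *Rarb* share 38.4% of their bases with other genes, 34.1% with *Top2b* on the opposite strand, and reads in that stretch were not counted for either gene. The shared part was 5.70% for *Thra*, with *Nr1d1*, 1.35% for *Nr1h3* and 0 for the other 7 genes.

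Promoter sequences are given for the 3 genes that changed most, *Nr1h3*, *Vdr* and *Rarg*, and for *Rarb*, whose promoter holds a pair of half-sites. They were taken from RefSeq (GRCm38.p6), which had an entry for 9 of the 10 genes, *Thra* being the other one, and for *Nr1h3*, *Vdr* and *Rarg* only bases outside annotated exons are shown, while the *Rarb* stretch lies within an annotated exon. Capitals mark a half-site (AGGTCA, with GGGTCA, or with AGTTCA, or with GGTTCA as variants, on either strand) or a GC box (GGGCGG, on either strand). They are written 5′ to 3′ on the strand of the gene, *Nr1h3* from chr2:91195152-91195366, *Vdr* from chr15:97908311-97908546, *Rarg* from chr15:102257523-102257772 and *Rarb* from chr14:16575509-16575533, all on the minus strand.
Nr1h3: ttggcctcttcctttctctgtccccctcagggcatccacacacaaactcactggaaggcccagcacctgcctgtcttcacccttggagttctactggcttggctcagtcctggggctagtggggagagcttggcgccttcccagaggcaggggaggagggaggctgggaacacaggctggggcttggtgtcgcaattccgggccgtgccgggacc
Vdr: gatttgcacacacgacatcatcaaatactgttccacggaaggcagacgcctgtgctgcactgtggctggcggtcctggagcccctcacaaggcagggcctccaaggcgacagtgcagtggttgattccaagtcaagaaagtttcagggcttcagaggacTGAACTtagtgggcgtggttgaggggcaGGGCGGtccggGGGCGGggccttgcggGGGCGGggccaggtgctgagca
Rarg: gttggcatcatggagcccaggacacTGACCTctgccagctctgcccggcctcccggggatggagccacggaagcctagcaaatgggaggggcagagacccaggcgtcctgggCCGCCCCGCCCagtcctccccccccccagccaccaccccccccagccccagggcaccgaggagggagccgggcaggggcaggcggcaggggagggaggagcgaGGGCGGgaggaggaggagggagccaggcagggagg
Rarb: gaagGGTTCAccgaaAGTTCActcg

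Among 32851 promoter windows of 250 bases, 38.6% held a half-site and 32.7% a GC box. The *Nr1h3* stretch held neither. The *Vdr* stretch held a half-site 91 bases before the start and GC boxes at 63, 52 and 36 bases, and the *Rarg* stretch a half-site at 225 bases and GC boxes at 138, 133 and 35 bases, of which the first pair overlap. RefSeq had another *Rarg* entry (chr15:102246501-102246750) and another *Nr1h3* entry (chr2:91195036-91195285), and neither window held a half-site or a GC box. Which start these cells use was not tested. The 25 bases of *Rarb* hold half-sites in a direct repeat with 5 bases between them, beginning 53 bases before the start. A direct repeat of half-sites with 0 to 5 bases between them was found in 0.706% of the windows and in no window of the other members. A match of letters is a description and does not show that a receptor binds there.

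Of the 10 receptors, 7 passed the filter on low counts and were tested among 16723 genes. *Rarb*, *Thrb* and *Ppara* did not pass. *Thrb*, the thyroid hormone receptor β, had 0 to 3 counts per library. *Ppara*, the receptor that drives fatty acid oxidation in liver and brown fat, had 0 to 2 counts at day 0 and 0 to 5 at days 2 and 6. *Rarb*, itself a textbook target of retinoic acid, had 3 to 8 counts at day 0, 0 to 3 at day 2 and 1 to 4 at day 6. At such counts a fold change would rest on a few reads, so these 3 genes are described by their counts, and the ratios and TPM given for them below rest on the same few reads.

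More receptors were called between days than between clones or genotypes. From day 0 to day 6 (edgeR quasi-likelihood test, Benjamini-Hochberg adjusted p under 0.05, averaged over genotypes) 4 of the 7 tested receptors rose (*Nr1h3*, *Rara*, *Ppard* and *Nr1h2*) and 3 fell (*Vdr*, *Rarg* and *Thra*), where 68.3% of all genes tested passed, 32.9% upward and 35.4% downward. From day 0 to day 2, 2 rose and 3 fell, against 73.3% of all genes (35.8% upward and 37.5% downward). From day 2 to day 6, 4 rose and 1 fell, against 62.0% of all genes (31.9% upward and 30.1% downward). The median log2 fold change of the 7 receptors was -0.21 from day 0 to day 2 and 0.69 from day 0 to day 6, beside -0.015 and -0.034 over all genes. Most genes thus changed, and whether the receptors were called more often than other genes was not tested. Ranges of the 12 libraries did not overlap between days 0 and 2 for *Rarg* and *Nr1h3* (27.7% of all genes), between days 0 and 6 for *Nr1h3* and *Vdr* (23.2%), and between days 2 and 6 for *Rarg*, *Nr1h3* and *Vdr* (17.1%).

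**Figure D1:**
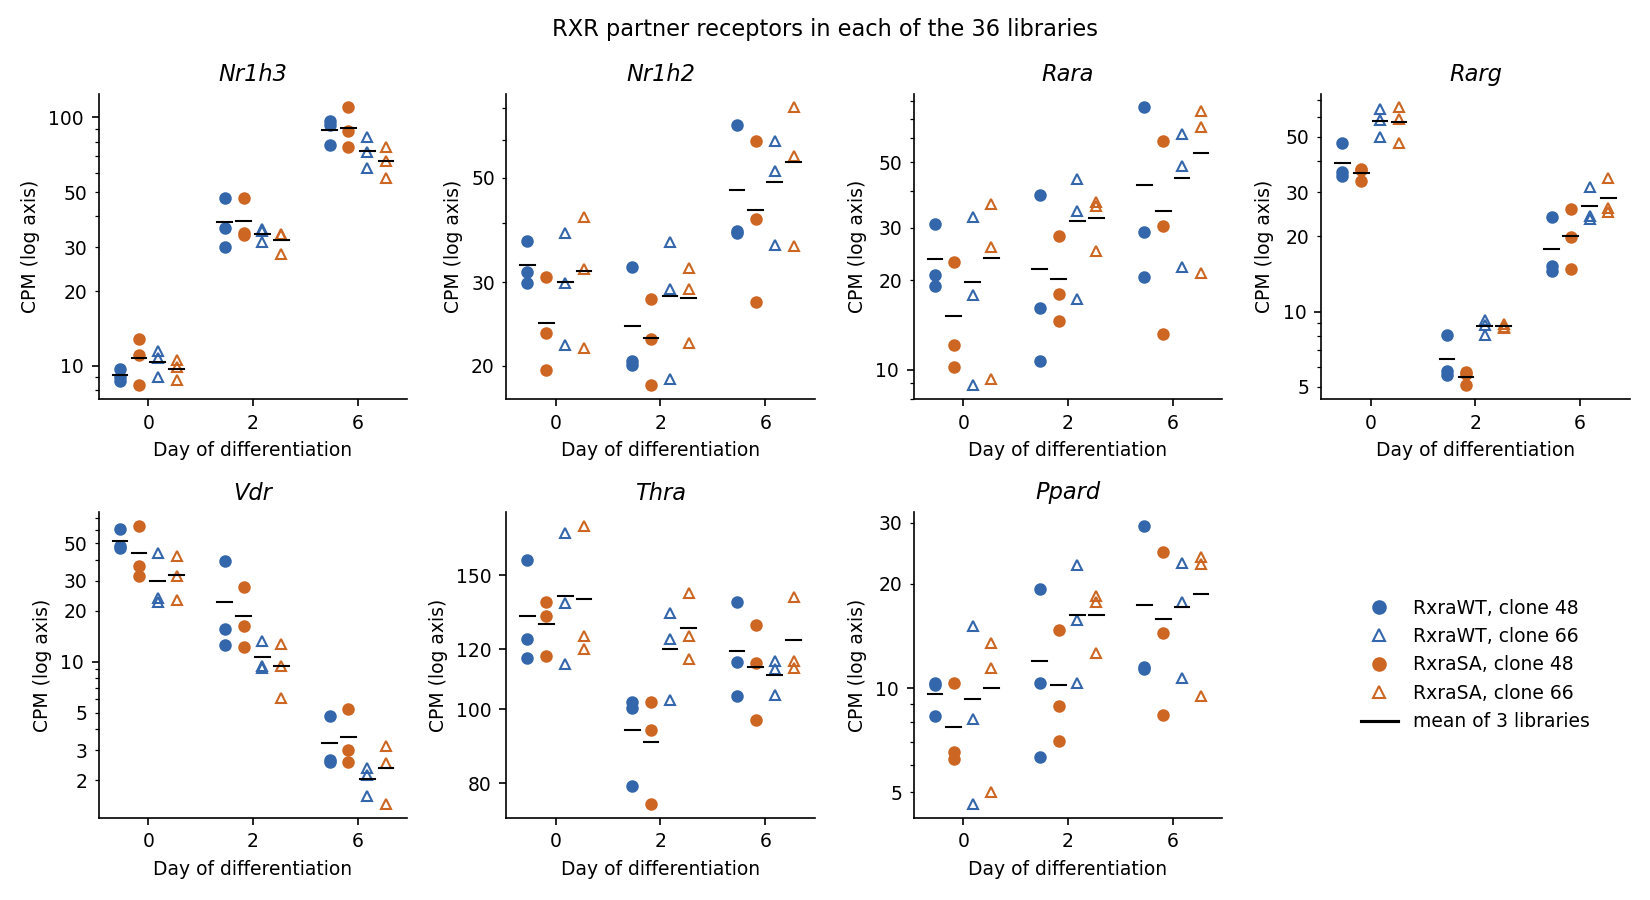
Normalised CPM (log axes) of the 7 tested receptors against day of differentiation, 1 point per library, with colour for RxraWT or RxraSA, symbol for the clone and a bar at the mean of 3 libraries. *Nr1h3* lies at 8.34 to 12.8 CPM at day 0 and at 57.3 to 109.8 CPM at day 6, while *Vdr* goes from 22.4 to 63.2 CPM down to 1.45 to 5.26 CPM.

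*Nr1h3* encodes LXRα, the liver X receptor of macrophages, liver and fat. At day 0 its normalised level was 8.34 to 12.8 CPM (counts scaled to a common library size, median 9.84, n = 12 libraries), at day 2 it was 28.2 to 47.5 CPM (median 34.1) and at day 6 it was 57.3 to 109.8 CPM (median 76.6). Every library of a later day thus lay above every library of an earlier one. The log2 fold change was 1.82 ± 0.09 (SE, 3.54-fold, adjusted p = 2.2e-18, edgeR) from day 0 to day 2 and 2.99 ± 0.10 (7.93-fold, adjusted p = 4.7e-24, edgeR) from day 0 to day 6. In clone 48 alone it was 3.19 ± 0.14 from day 0 to day 6 and in clone 66 2.80 ± 0.13.

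*Nr1h2* encodes LXRβ, which most cell types express. It ranged from 19.6 to 41.3 CPM (median 30.3) at day 0, from 18.2 to 36.5 CPM (median 25.2) at day 2 and from 27.3 to 70.4 CPM (median 46.2) at day 6. The days overlapped. The change from day 0 to day 2 was -0.21 ± 0.15 in log2 and did not pass the test (adjusted p = 0.20, edgeR), while from day 0 to day 6 *Nr1h2* rose by 0.69 ± 0.15 (1.62-fold, adjusted p = 9.5e-05, edgeR).

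The balance of the pair was followed as the log2 ratio of their levels per length within a library, averaged over the RxraWT and RxraSA libraries of the same number, which gave 6 paired values per day. RxraWT and RxraSA are separate lines, so such a value is a mean of 2 lines. The ratio of *Nr1h3* to *Nr1h2* was -1.13 ± 0.37 (SD, n = 6) at day 0, 0.90 ± 0.51 at day 2 and 1.18 ± 0.68 at day 6. *Nr1h2* was thus the higher of the LXR genes in all 6 paired values at day 0, and *Nr1h3* in all 6 at days 2 and 6. The difference from day 0 was 2.03 at day 2 and 2.31 at day 6 (adjusted p = 0.015 for each, two-sided exact permutation test within clones, where 0.005 is the smallest unadjusted p of 400 assignments, adjusted over 15 ratio tests). Days 2 and 6 differed by 0.28 (adjusted p = 0.49, same exact permutation test). That test ignores the library number, and at each number of each clone the ratio was higher at day 6 than at day 2.

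*Rarg* encodes RARγ, a retinoic acid receptor of skin, cartilage and mesenchymal cells. It ranged from 33.2 to 65.5 CPM (median 47.1) at day 0, from 5.07 to 9.27 CPM (median 8.06) at day 2 and from 14.5 to 34.2 CPM (median 23.96) at day 6. Day 2 lay below both other days in every library, whereas days 0 and 6 met at their edges. *Rarg* fell by 2.69 ± 0.10 on the log2 scale from day 0 to day 2 (6.43-fold lower, adjusted p = 1.3e-22, edgeR) and rose by 1.66 ± 0.10 from day 2 to day 6 (adjusted p = 1.4e-16, edgeR), which left it 2.04-fold lower than at day 0 (log2 fold change -1.03 ± 0.09, adjusted p = 5.3e-12, edgeR).

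*Rara* encodes RARα, the most widely expressed retinoic acid receptor. Its libraries ranged from 8.86 to 36.2 CPM (median 19.99) at day 0, from 10.7 to 43.7 CPM (median 26.6) at day 2 and from 13.2 to 76.3 CPM (median 39.4) at day 6. The spread within a day was wide, and all days overlapped. The log2 fold change was 0.34 ± 0.28 (adjusted p = 0.28, edgeR) at day 2 and 1.07 ± 0.29 (2.10-fold, adjusted p = 0.0013, edgeR) at day 6 relative to day 0. From day 2 to day 6 it was 0.73 ± 0.28 (adjusted p = 0.026, edgeR), a call that was lost (adjusted p = 0.0993, edgeR) when the RxraWT and RxraSA libraries of the same number were summed to 18 units.

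The order of the retinoic acid receptors turned over between days 0 and 2. The log2 ratio of *Rarg* to *Rara* was 1.35 ± 0.57 (SD, n = 6 paired values) at day 0, -1.72 ± 0.46 at day 2 and -0.71 ± 0.62 at day 6. In all 6 paired values *Rarg* was above *Rara* at day 0 and below it at day 2. The differences were -3.07 at day 2 and -2.06 at day 6 relative to day 0 (adjusted p = 0.015 for each, exact permutation test) and 1.01 between days 2 and 6 (adjusted p = 0.043, exact permutation test). For *Rarb* relative to *Rara* the difference was -2.55 at day 2 (adjusted p = 0.015, exact permutation test) and -2.08 at day 6 (adjusted p = 0.0375, exact permutation test), both on the *Rarb* counts given above with 0.5 added to each. The ratios of *Thrb* to *Thra* and of *Ppara* to *Ppard* passed no test, with at most 5 counts per library in the rarer gene.

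**Figure D2:**
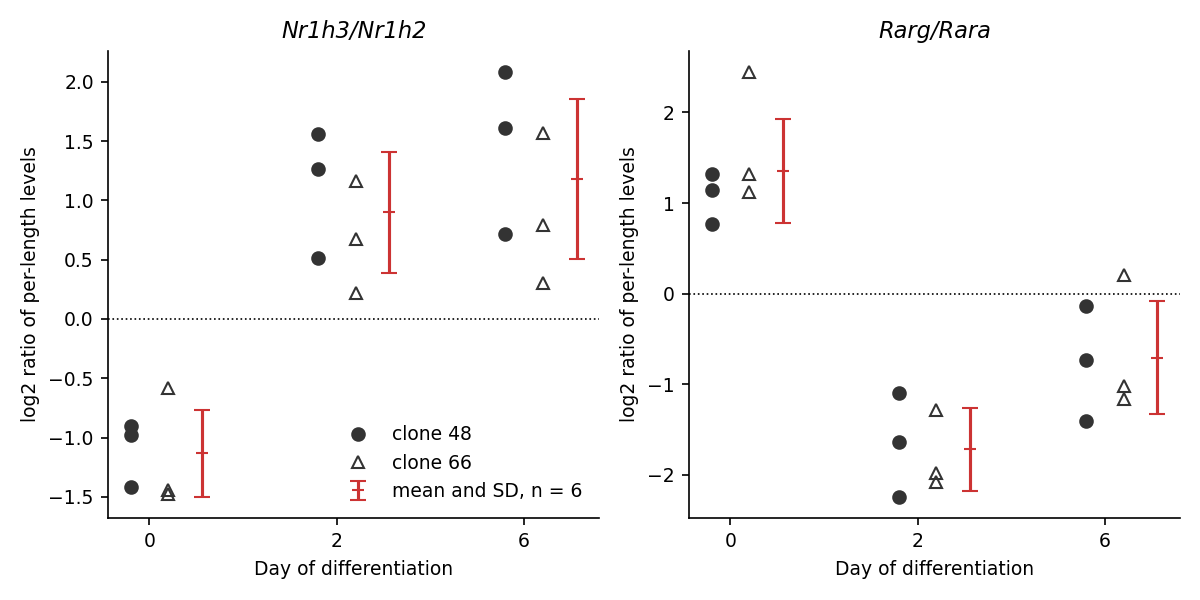
Log2 ratio of levels per length within RAR and LXR pairs against day, 1 point per paired value (mean of the RxraWT and RxraSA libraries of 1 clone and number), with the mean of 6 such values per day. *Nr1h3* relative to *Nr1h2* goes from a mean of -1.13 at day 0 to 0.90 at day 2, and *Rarg* relative to *Rara* from 1.35 to -1.72.

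*Vdr* encodes the vitamin D receptor, which binds calcitriol. It ranged from 22.4 to 63.2 CPM (median 39.3) at day 0, from 6.12 to 39.5 CPM (median 12.6) at day 2 and from 1.45 to 5.26 CPM (median 2.55) at day 6. Every day 6 library, with 30 to 92 counts, lay below every library of the other days. The log2 fold change was -1.42 ± 0.19 (2.68-fold lower, adjusted p = 3.1e-08, edgeR) at day 2 and -3.81 ± 0.21 (14.0-fold lower, adjusted p = 1.7e-17, edgeR) at day 6. The day 6 value was -3.78 ± 0.31 within clone 48 and -3.82 ± 0.32 within clone 66.

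*Thra* encodes the thyroid hormone receptor α and changed less than most of the others. It ranged from 114.7 to 174.2 CPM (median 128.8) at day 0, from 75.1 to 142.3 CPM (median 102.7) at day 2 and from 96.8 to 140.4 CPM (median 115.3) at day 6. All days overlapped. It fell from day 0 to day 2 by 0.34 ± 0.09 in log2 (1.26-fold lower, adjusted p = 0.00095, edgeR). The day 6 difference of -0.21 ± 0.09 (adjusted p = 0.032, edgeR) did not hold when same-numbered libraries were summed (adjusted p = 0.144, edgeR), nor with RLE size factors (-0.19, adjusted p = 0.0575, edgeR), nor when any 1 of 25 single libraries was left out (-0.21 to -0.16).

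*Ppard* encodes PPARδ, which promotes fatty acid oxidation in many tissues. It ranged from 4.63 to 15.2 CPM (median 9.26) at day 0, from 6.31 to 22.7 CPM (median 13.7) at day 2 and from 8.39 to 29.4 CPM (median 16.0) at day 6. Its days overlapped like those of *Rara*. *Ppard* rose by 0.92 ± 0.23 in log2 from day 0 to day 6 (1.89-fold, adjusted p = 0.0007, edgeR). The difference of 0.56 ± 0.23 at day 2 (adjusted p = 0.029, edgeR) was lost with same-numbered libraries summed (adjusted p = 0.111, edgeR).

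Levels of different genes were compared per length of exon, as TPM. At day 0 *Thra* was highest at 86.4 ± 15.3 TPM (SD, n = 12), above *Rarg* (32.9 ± 9.4), *Nr1h2* (26.3 ± 7.4), *Vdr* (20.7 ± 7.8), *Rara* (14.1 ± 7.0), *Nr1h3* (11.6 ± 1.0) and *Ppard* (3.63 ± 1.47). The ranges of *Thra* and *Rarg* did not overlap, whereas those from *Rarg* down to *Nr1h3* overlapped neighbour by neighbour, and those of *Nr1h3* and *Ppard* did not overlap. At day 2 the order was *Thra* (55.9 ± 11.4), *Nr1h3* (33.4 ± 3.7), *Nr1h2* (18.5 ± 5.3), *Rara* (14.7 ± 6.7), *Vdr* (6.61 ± 4.49), *Ppard* (4.40 ± 1.87) and *Rarg* (4.13 ± 1.04). *Nr1h3* and *Nr1h2* were the only neighbours among these 7 whose ranges did not overlap. At day 6 *Nr1h3* (72.5 ± 13.1 TPM) stood above *Thra* (58.0 ± 8.5) in 10 of 12 libraries, with overlapping ranges, and was followed by *Nr1h2* (33.1 ± 10.6), *Rara* (23.2 ± 12.9), *Rarg* (12.5 ± 3.6), *Ppard* (5.34 ± 2.41) and *Vdr* (1.16 ± 0.52). *Rarb*, *Ppara* and *Thrb* were at or below 0.154 TPM on average on every day, with the full exon length. Over the exon bases it shares with no other gene, *Rarb* was at 0.250 TPM at day 0.

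The 10 receptors summed to 195.9 ± 38.5 TPM at day 0, 137.7 ± 24.2 TPM at day 2 and 206.0 ± 31.0 TPM at day 6. On the same scale and days *Rxra* had 86.9, 237.5 and 103.9 TPM, *Rxrb* had 36.3, 46.2 and 41.9 TPM, and *Pparg*, which encodes PPARγ, had 74.7, 320.0 and 403.1 TPM. The *Rxra* values do not separate the vector from the edited gene. TPM lack the scaling between libraries used for CPM, so changes between days can differ between TPM and CPM. From day 0 to day 2 the *Rara* mean went from 14.1 to 14.7 TPM and from 20.6 to 26.55 CPM. From day 0 to day 6 the *Thra* mean went from 86.4 to 58.0 TPM and from 135.7 to 116.8 CPM. The share of *Thra* in the sum of the 10 receptors was 44.5% ± 3.95 (SD, n = 12) at day 0 and 28.2% ± 1.7 at day 6. *Nr1h3* held 6.18% ± 1.57 at day 0, then 25.1% ± 6.0 at day 2 and 36.1% ± 9.4 by day 6. *Rarg* made up 16.8%, 2.99% and 6.03%, and *Vdr* 10.6%, 4.77% and 0.549%. *Nr1h2* kept a share of 13.2% at days 0 and 2 and 15.8% at day 6. *Rara* had 6.82%, 10.2% and 10.7%, and *Ppard* 1.79%, 3.07% and 2.49%.

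**Figure D3:**
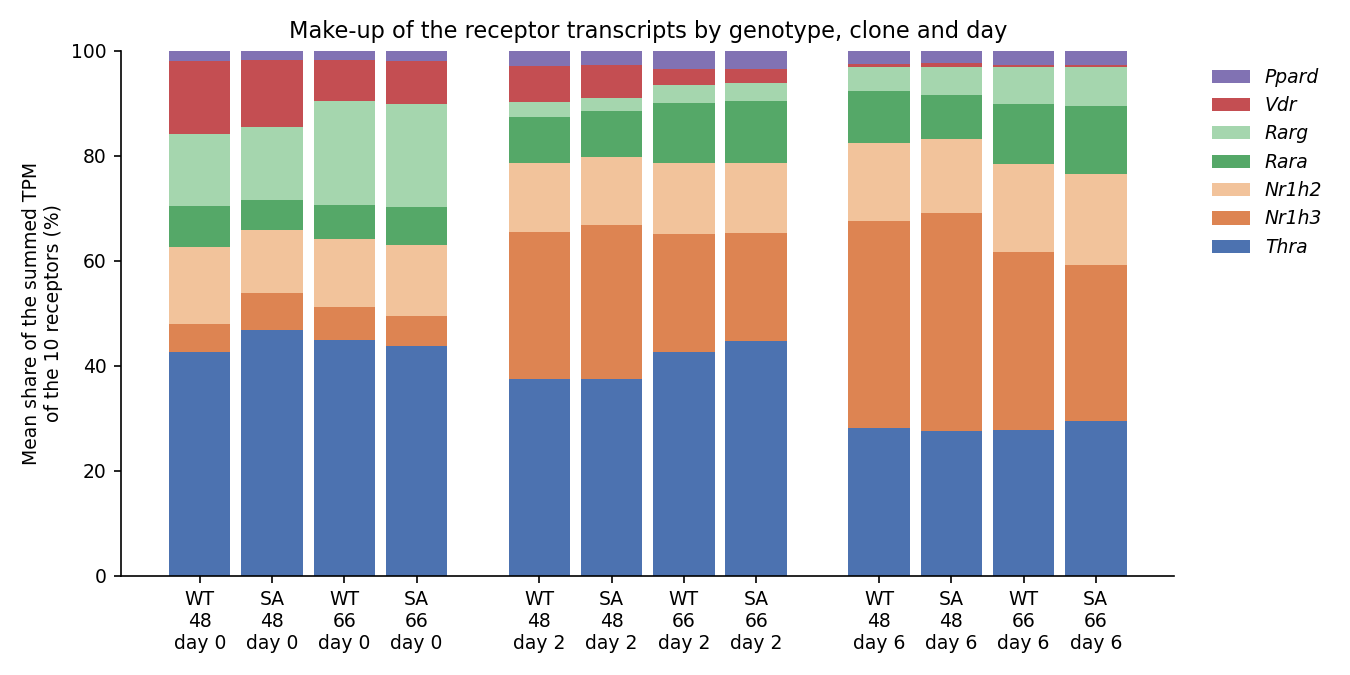
Mean share of the 7 tested receptors in the summed TPM of the 10 receptors (percent, stacked bars from 0). Each bar is 1 genotype, clone and day, n = 3 libraries per bar. The *Nr1h3* segments lie at 5.44% to 7.19% at day 0 and at 29.8% to 41.55% at day 6. Those of *Thra* lie at 42.55% to 46.7% at day 0 and at 27.6% to 29.4% at day 6.

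The exchange of serine 22 for alanine is the question of the study. No receptor differed between RxraSA and RxraWT at day 0, 2 or 6 at an adjusted p under 0.05 (edgeR), and none of the 16723 genes did (0.0% on each day, with 139, 162 and 125 genes at an unadjusted p under 0.05, and 0 genes called by DESeq2). With a block for each same-numbered pair, 0, 1 and 0 genes were called, none of them a receptor (edgeR). The log2 differences of the 7 tested receptors lay between -0.22 (*Vdr* at day 2) and 0.17 (*Vdr* at day 6). How small a difference these data could show depended on the gene. For *Nr1h3* at day 6 the difference was -0.044 with a 95% confidence interval from -0.30 to 0.21, and for *Thra* it was 0.033 (-0.22 to 0.29). For *Rara* at day 6 it was -0.011 (-0.82 to 0.80) and the interval reached 1.74-fold upward. Same-numbered RxraSA and RxraWT libraries deviated together, and with a block for each such pair the SE at day 6 was 0.195 in place of 0.397 for *Rara* and 0.0662 in place of 0.127 for *Nr1h3*, so the intervals without the block are wide. The intervals therefore bound the difference between these RxraSA and RxraWT libraries without showing that there is none. Each form came from a single line per clone, so spread between lines of the same form is not part of the intervals.

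The day 6 values of *Rarg* are the ones that leaned most steadily to one side. In clone 48 the RxraSA libraries 1, 2 and 3 had 14.8, 19.9 and 25.6 CPM and the RxraWT libraries 14.5, 15.2 and 23.9 CPM. In clone 66 they had 24.9, 25.9 and 34.2 CPM in RxraSA and 24.04, 23.4 and 31.5 CPM in RxraWT. RxraSA was higher in 6 of 6 same-numbered pairs, with groups that overlapped. This case was picked from 7 receptors at 3 days after their values were seen. The share of all genes with every pair on one side was not computed. The log2 difference was 0.14 ± 0.13 (adjusted p = 1.0, edgeR), and with a block for each pair it was 0.14 ± 0.07 (adjusted p = 1.0, edgeR).

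**Figure D4:**
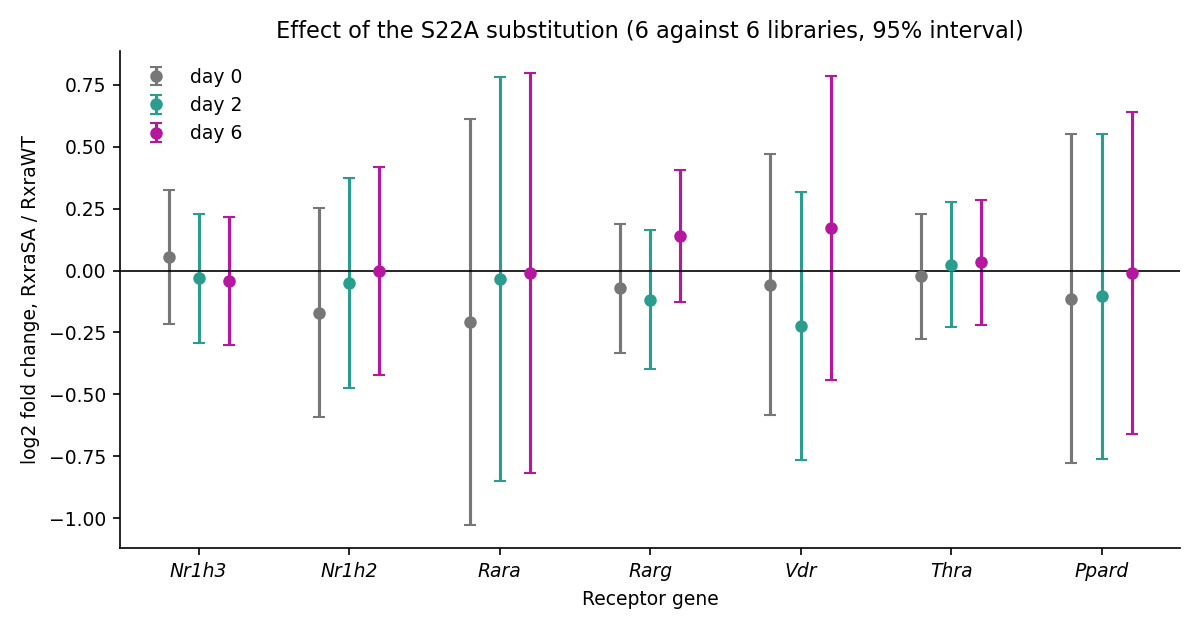
Log2 fold change of RxraSA relative to RxraWT with its 95% confidence interval (edgeR) for the 7 tested receptors at days 0, 2 and 6, with a line at 0. All 21 intervals include 0, and those of *Rara* are the widest, from -1.03 to 0.61 at day 0.

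The difference between RxraSA and RxraWT was also followed over time and within each clone. The change of that difference from day 0 to day 2 or to day 6 passed for no receptor and no gene (edgeR; 144 and 128 genes at an unadjusted p under 0.05). Within clone 48 or clone 66 alone no receptor was called at any day, nor did that effect differ between the clones for any receptor (0.0% of all genes in each of these tests).

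More receptors were called between the clones than between the genotypes. At day 0, 1 of the 7 receptors was called between clone 66 and clone 48 (edgeR, 23.7% of all genes), at day 2, 3 were called (30.0%) and at day 6, 2 were called (26.2%). *Rarg* had 33.2 to 47.0 CPM (median 36.6, n = 6) in clone 48 and 47.2 to 65.5 CPM (median 58.8) in clone 66 at day 0, and the ranges did not overlap. It was higher in clone 66 by 0.61 ± 0.14 in log2 at day 0, 0.55 ± 0.15 at day 2 and 0.53 ± 0.14 at day 6 (adjusted p = 0.0011, 0.0046 and 0.0047, edgeR). With same-numbered libraries summed, *Rarg* was still called at day 0 (adjusted p = 0.041, edgeR) and was not at day 2 (adjusted p = 0.058) or day 6 (adjusted p = 0.0725).

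*Vdr* had 12.2 to 39.5 CPM (median 15.9) in clone 48 and 6.12 to 13.3 CPM (median 9.47) in clone 66 at day 2, a log2 difference of -1.03 ± 0.28 (adjusted p = 0.0055, edgeR). *Thra* had 75.1 to 102.4 CPM in clone 48 and 103.0 to 142.3 CPM in clone 66 at day 2, a difference of 0.43 ± 0.12 (adjusted p = 0.0067, edgeR). *Nr1h3* had 75.7 to 109.8 CPM in clone 48 and 57.3 to 83.8 CPM in clone 66 at day 6, a difference of -0.37 ± 0.12 (adjusted p = 0.025, edgeR). These calls were lost with same-numbered libraries summed, with adjusted p of 0.0593, 0.0835 and 0.164 (edgeR), while the differences kept their direction.

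Within single clones, 6 of the 7 receptors were called in clone 48 between days 0 and 6 (edgeR, 56.3% of all genes). The same 6 were called in clone 66 (57.7% of all genes). *Rarg* changed by -0.98 ± 0.14 in log2 in clone 48 and -1.07 ± 0.14 in clone 66, *Nr1h2* by 0.66 ± 0.22 and 0.74 ± 0.22, *Rara* by 1.00 ± 0.42 and 1.16 ± 0.42, and *Ppard* by 0.94 ± 0.35 and 0.89 ± 0.34. *Thra* was the exception, at -0.17 ± 0.12 (adjusted p = 0.23, edgeR) and -0.26 ± 0.12 (adjusted p = 0.059, edgeR). From day 0 to day 2, 4 receptors were called in clone 48 (65.3% of all genes) and 3 in clone 66 (61.6%). *Nr1h3*, *Rarg* and *Vdr* were called in both clones and *Ppard* in neither. *Thra* was called in clone 48 (-0.51 ± 0.12, adjusted p = 0.00049, edgeR) and not in clone 66 (-0.18 ± 0.12, adjusted p = 0.19, edgeR). From day 2 to day 6, 5 receptors were called in clone 48 (51.1% of all genes) and 4 in clone 66 (50.5%). *Nr1h3*, *Nr1h2*, *Rarg* and *Vdr* were called in both clones and *Rara* in neither. *Thra*, not called over both clones together, was called in clone 48 (0.34 ± 0.12, adjusted p = 0.019, edgeR). The share of all genes called in both clones was not computed.

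The course over time did not differ between the clones for any receptor at an adjusted p under 0.05 (edgeR), against 6.84% of all genes for day 2 relative to day 0, 3.85% for day 6 relative to day 0 and 6.18% for day 6 relative to day 2. The day 6 rise of *Nr1h3* was smaller in clone 66 by 0.39 ± 0.18 in log2 (adjusted p = 0.30, edgeR). With the replicate number as a block it was 0.40 smaller and called (adjusted p = 0.041, edgeR), as was the *Thra* difference between days 2 and 6 (-0.41, adjusted p = 0.0218, edgeR). With same-numbered libraries summed neither was called (adjusted p = 0.80 and 0.60, edgeR).

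Libraries of 1 group agreed well for some receptors and poorly for others. The SD within groups was 0.81 in log2 for *Rara*, above 98.9% of 9381 well expressed genes (mean log2 CPM of 3 or more), 0.64 for *Ppard* (96.7%), 0.51 for *Vdr* (92.8%) and 0.40 for *Nr1h2* (85.8%). It was 0.24 for *Rarg*, 0.22 for *Nr1h3* and 0.21 for *Thra*, around the median of 0.23. The deviations of *Rara* from its group means went with those of *Ppard* (r = 0.976 over 36 libraries) and *Nr1h2* (r = 0.964), and against those of *Nr1h3* (r = -0.70). Replicate 1 was the lowest of its 3 libraries for *Rara* in 12 of 12 groups, for *Thra* in 11, for *Ppard* in 10, for *Nr1h2* in 9, for *Rarg* in 8, for *Vdr* in 7 and for *Nr1h3* in 1.

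Base composition moved with the deviations of widely and of narrowly spread receptors, except *Nr1h3*, where the correlation was negative. Genes were ranked by the G and C share of their longest transcript. For each library the median deviation of 1261 genes with at most 40.8% G and C was subtracted from that of 1316 genes with at least 57.6%. The correlation of this difference with the deviations was 0.83 for *Ppard*, 0.787 for *Rara* and for *Nr1h2*, 0.761 for *Thra*, 0.677 for *Rarg*, 0.65 for *Vdr* and -0.311 for *Nr1h3*, over 36 libraries in which same-numbered ones deviate together. The longest transcript of *Rara* held 59.2% G and C, that of *Nr1h2* 60.6%, of *Thra* 59.8%, of *Rarg* 58.8%, of *Vdr* 52.4%, of *Nr1h3* 56.8% and of *Ppard* 52.2%, against a median of 49.2%. With an offset for base composition, the *Ppard* difference between days 0 and 2 (0.40, adjusted p = 0.0952, edgeR) and the *Rara* difference between days 2 and 6 (0.52, adjusted p = 0.0563, edgeR) were no longer called. With the replicate number as a block beside the offset both were called (0.39, adjusted p = 0.0099, and 0.44, adjusted p = 0.0087, edgeR), as were *Rara* between days 0 and 2 (0.38, adjusted p = 0.02) and *Ppard* between days 2 and 6 (0.35, adjusted p = 0.0201).

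**Figure D5:**
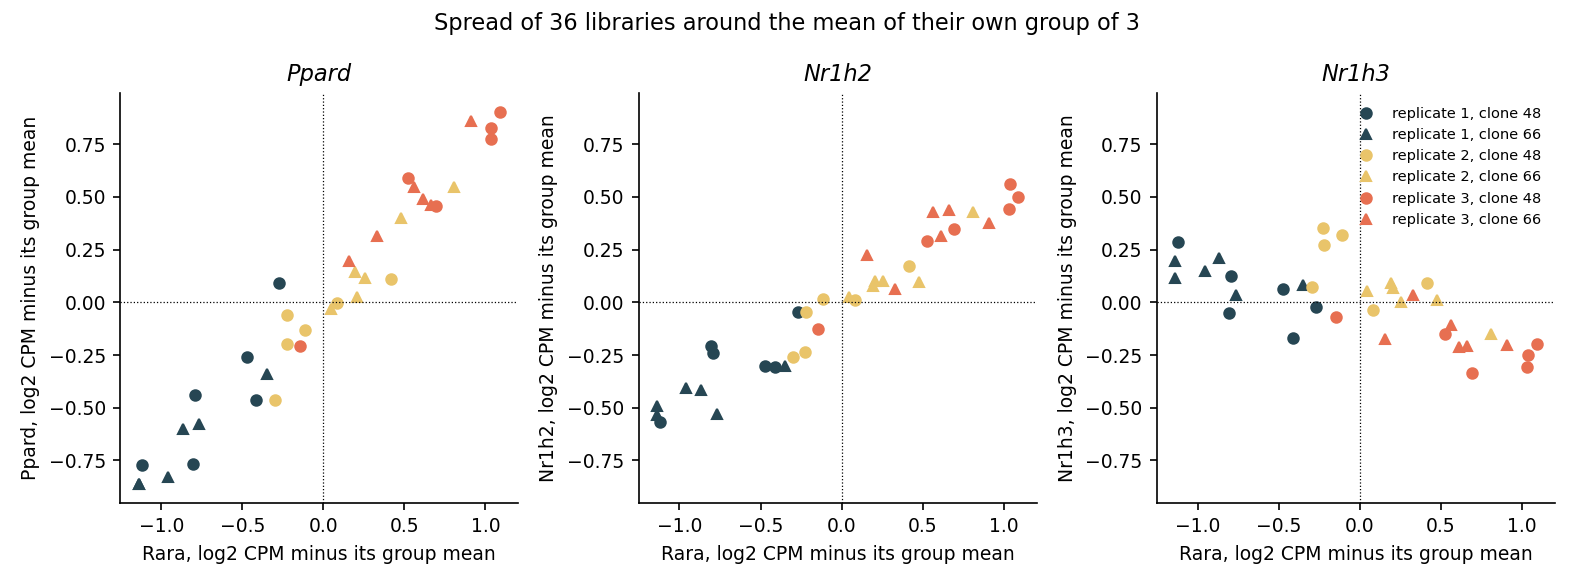
Deviation of each library from the mean of its group (log2) for *Ppard*, *Nr1h2* and *Nr1h3* against the deviation of *Rara*, 1 point per library. *Ppard* (r = 0.976) and *Nr1h2* (r = 0.964) lie along the rising diagonal, and *Nr1h3* (r = -0.70) falls.

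Genes with the pattern most like that of a receptor were named by the Pearson correlation of normalised log2 CPM over the 36 libraries, as a description, since the libraries share days and clones. The names depend on the measure. By Spearman correlation neither named gene stayed among the closest 2 for *Nr1h3*, *Rara* or *Rarg*, and with values centred within each clone neither did for *Vdr*. *Nr1h3* was most like *Retn* (r = 0.988), which encodes the fat cell hormone resistin, and *Wfdc21* (0.987). *Vdr* was most like *Nrg1* (0.958), a growth factor of the EGF family, and *Ptx3* (0.955), a secreted pattern recognition protein. *Rarg* was most like *Lats2* (0.978), a kinase of the Hippo pathway, and *Osbpl5* (0.977). *Rara* and *Ppard* were most like *Gga1* (0.968 and 0.969), a sorting adaptor, and each other (0.964). *Nr1h2* was most like *Cuedc1* (0.966) and *Tpcn1* (0.959), and *Thra* less closely like *Wipi1* (0.837) and *Usp21* (0.824). Among the receptors *Nr1h3* and *Vdr* ran opposite to each other (r = -0.908).

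Genes known to respond to these receptors were followed as fixed lists, with the medians set beside the all-gene median of -0.034 from day 0 to day 6, when 68.3% of all genes were called, 32.9% upward and 35.4% downward. From day 2 to day 6 it was 62.0%, 31.9% upward and 30.1% downward. *Thrsp*, *Ehhadh*, *Fgf21* and *Rxrg* passed the low-count filter through the later days, and *Crabp2* and *Nr1h4* through day 0, so their direction was partly fixed by the filter and the counts below are descriptions. All 8 LXR response genes were tested, of which 6 rose and 2 fell (median log2 fold change 1.98), and all 8 rose between days 2 and 6. *Abca1*, the cholesterol exporter, ranged from 0.647 to 2.42 CPM at day 0, from 32.3 to 122.8 CPM at day 2 and from 197.1 to 434.4 CPM at day 6, without overlap between days, a log2 fold change of 7.95 ± 0.21 from day 0 to day 6 (adjusted p = 1.0e-26, edgeR). *Abcg1*, its partner in cholesterol efflux, rose by 3.08 ± 0.14. *Pltp*, the phospholipid transfer protein, fell by 2.32 ± 0.17, and *Mylip*, which directs the LDL receptor to degradation, fell by 0.28 ± 0.08. The list of LXR response genes thus went both ways.

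Of 8 RAR response genes 5 were tested, and 3 rose and 2 fell from day 0 to day 6 (median 0.99). Of all genes 32.9% rose and 35.4% fell. *Tgm2*, a transglutaminase, went from 7.86 to 19.1 CPM at day 0 to 169.3 to 241.2 CPM at day 6, and *Dhrs3*, which turns retinal back to retinol, from 9.96 to 22.2 CPM to 31.6 to 52.6 CPM. *Crabp2*, the carrier of retinoic acid to its receptors, fell by 2.53 ± 0.36 and *Cyp26b1*, which degrades retinoic acid, by 1.51 ± 0.36, both from at most 4.57 CPM. For vitamin D, *Spp1* (osteopontin) fell by 3.95 ± 0.19, *Cyp27b1*, the enzyme that makes calcitriol, rose by 1.30 ± 0.22 at day 2 (adjusted p = 3.1e-06, edgeR) and fell by 1.19 ± 0.22 from day 2 to day 6, with no call between days 0 and 6 (0.11 ± 0.24, adjusted p = 0.70, edgeR), and *Cyp24a1*, the classical target, had at most 1 count in any library.

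Of 8 genes of thyroid hormone response and handling 4 were tested, each of them higher at day 6 than at day 0 (32.9% of all genes). The other 4, *Ucp1* and the deiodinase genes *Dio1*, *Dio2* and *Dio3*, had at most 20 counts in any library and did not pass the filter. *Thrsp*, a lipogenic gene named for its thyroid response, had 0.130 to 0.567 CPM at day 0 and 45.8 to 100.1 CPM at day 6, and *Hr*, a corepressor, fell by 0.76 ± 0.19 at day 2 and stood 2.24 ± 0.18 above day 0 at day 6. Of 12 PPAR response genes 10 were tested. From day 0 to day 6, 8 rose (32.9% of all genes), 1 fell (35.4%) and 1 was not called (median of the list 1.29). From day 2 to day 6, 3 rose (31.9% of all genes) and 6 fell (30.1%, median of the list -1.26), among them *Angptl4*, an inhibitor of lipoprotein lipase, by 2.27. *Ehhadh*, an enzyme of peroxisomal fatty acid oxidation, had 0 to 2 counts at day 0 and 61 to 120 at day 6, and *Fgf21*, a secreted hormone, had 0 to 2 counts at day 0, 37 to 103 at day 2 and 2 to 43 at day 6. *Cpt1a*, which admits fatty acids to mitochondria, fell by 1.48 ± 0.11. Many of these genes are also induced by PPARγ, and the lists do not separate the receptors.

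The 3 RXR genes were higher at day 6 than at day 0, as were 32.9% of all genes. The *Rxra* counts do not separate the vector from the edited gene. They rose by 1.77 ± 0.11 in log2 from day 0 to day 2 and changed by -1.155 ± 0.11 from day 2 to day 6. That left *Rxra* 0.62 ± 0.11 above day 0. *Rxrb* rose by 0.56 ± 0.07, and *Rxrg* had 0 counts in every day 0 library and 7 to 72 at day 6. Among 6 other partner receptors 4 were tested, 1 rose and 3 fell (32.9% and 35.4% of all genes). *Pparg* rose by 2.80 ± 0.08, while *Nr1h4*, which encodes the bile acid receptor, had 11 to 85 counts at day 0 and 0 to 3 at day 6, and *Nr4a2*, an orphan receptor, fell by 1.13 ± 0.20. In none of these lists was a gene called between RxraSA and RxraWT at any day (edgeR).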

How the data were processed

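RNA was sequenced from 36 libraries (12 groups of 3). Alignment by the authors used STAR 2.7.0d and mm10, and they deposited raw counts per gene from featureCounts 1.6.2, made without strand, for 55536 genes of GENCODE M21. Reads that touched more than 1 gene were not counted. Here genes were kept by filterByExpr (16723), scaled by TMM and tested with edgeR 4.0.16 (quasi-likelihood, R 4.3.3), with the genotype-by-day groups and the clone as terms, as in the study's stated model, or with the 12 groups for clone comparisons. Adjusted p-values are Benjamini-Hochberg values over all genes tested. CPM are TMM-normalised, and TPM used exon lengths. Scripts were tested on simulated data with known changes. DESeq2 1.42.0 and other settings served as alternatives.

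The labels call the 3 libraries of a group replicates without naming separate cultures, the series text calls them technical and the methods independent, so p-values measure only the spread between these libraries. In none of the 36 pairs of libraries within a group did the counts agree within sampling noise. RxraWT and RxraSA libraries of the same number, clone and day deviated together from their group means (18 pairs, mean r 0.710, lowest 0.176, over 9381 genes). The numbers therefore pair the genotypes within a day. For other numbers the mean r was -0.333. Deviations from the mean of a group of 3 cancel out, so that negative value follows from the positive one and is no separate evidence. Across days same-numbered libraries did not always deviate together (72 pairs, mean r 0.385, lowest -0.325). The mean of -0.184 for other numbers across days follows in the same way. For day and clone comparisons such pairs were also summed to 18 units, chosen after seeing the data.

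The members, gene lists and tests were chosen with earlier results of these data known. The text names the 10 members, up to 2 genes with the largest called rise and 2 with the largest fall from day 0 to day 6 in each list, and the 2 genes most like each tested member in the set of genes whose mean log2 CPM was 3 or more. *Cyp27b1*, *Cyp24a1*, *Rxrb*, *Angptl4*, *Ucp1*, *Ebf2*, *Ppargc1a*, *Prdm16* and the *Dio* genes were named beside them after their values were seen.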

Additional observations from a re-analysis of the deposited data

Results flagged for a closer look

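*Thra* at day 6 went in opposite directions in the clones when RxraSA was set against RxraWT. In clone 48 the libraries 1, 2 and 3 had 96.8, 115.1 and 129.0 CPM in RxraSA and 104.1, 115.5 and 138.4 CPM in RxraWT, so RxraSA was lower in all 3 same-numbered pairs. In clone 66 they had 113.4, 115.9 and 140.4 CPM in RxraSA and 113.1, 104.3 and 115.8 CPM in RxraWT, so RxraSA was higher in all 3. The mean difference between the clones was 0.216 in log2. The edgeR test of the difference itself gave 0.22 ± 0.24 (adjusted p = 1.0) and did not pass.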

How the results depend on the processing

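Of 4606 recomputed values, none changed direction while called. 0 receptors were called between the genotypes under every alternative, the pair block within each day included. Library size alone moved the median of all genes to -0.27 (day 2 relative to day 0) and -0.22 (day 6 relative to day 0), which turned no called receptor. The number of receptors called between clones at day 0 was 1, and 2 under the replicate block, without a filter and with offsets for base composition. At day 2 it was 3, and 5 under the replicate block and 0 with same-numbered libraries summed. At day 6 it was 2, and 3 under the replicate block (*Vdr* at -0.61 being added, adjusted p = 0.0098, edgeR), 1 without a filter and 0 with same-numbered libraries summed. For the course over time between clones it was 0, and 1 under the replicate block (days 6 to 0 and 6 to 2) and with offsets for base composition (days 2 to 0 and 6 to 2). When 1 library was left out, 1 to 2, 3 and 1 to 2 receptors were called between clones at days 0, 2 and 6, and 4 to 5, 6 to 7 and 4 to 5 for days 2 to 0, 6 to 0 and 6 to 2. Single libraries ended the *Rara* call between days 2 and 6, which was 0.64 without RxraWT clone 48 replicate 1 of day 2, 0.56 without RxraWT clone 48 replicate 3 of day 6, and 0.64 without RxraSA replicate 3 of day 6 of either clone. The *Ppard* call between days 0 and 2 ended without any 1 of 6 libraries (0.47 to 0.53), with library size alone (0.30) and with offsets. The *Thra* call between days 0 and 6 also ended without a filter (-0.16) and with DESeq2 (-0.19), and was -0.41 with library size alone and -0.37 with offsets, and the *Nr1h3* call between clones at day 6 without a filter (-0.35) and without any 1 of 6 libraries (-0.35 to -0.27). The *Nr1h2* difference between days 0 and 2 became a call under the replicate block (-0.22) and with library size alone (-0.47), and that of *Ppard* between days 2 and 6 under the replicate block (0.31). The replicate block ended or made no other call of a receptor between days. For the ratios the block is an exact sign-flip test over 6 differences, and with so few its p-value cannot fall far. Its smallest adjusted p in these data was 0.0586, a value that depends on how many of the 15 ratio tests tie. No ratio passed. The calls lost were -2.55 and -2.08 (*Rarb* to *Rara*, days 2 and 6 relative to day 0), -3.07, -2.06 and 1.01 (*Rarg* to *Rara*, days 2 to 0, 6 to 0 and 6 to 2), and 2.03 and 2.31 (*Nr1h3* to *Nr1h2*). With 2 counts added instead of 0.5, *Rarb* to *Rara* at day 6 was -1.73 (adjusted p = 0.0562, exact permutation test). With exon bases not shared with other genes, *Rarb* was 0.250 TPM (0.130% of the sum) at day 0 and 0.0868 TPM (0.0433%) at day 6. Among all genes, summing same-numbered libraries lowered the calls between clones from 3956 to 1933, 5011 to 2950 and 4382 to 2289 at days 0, 2 and 6, and the calls of a different course over time from 1144 to 270, 644 to 146 and 1033 to 238, which the replicate block raised to 2248, 1369 and 2082. Base composition offsets, the pair block within each day, the clone by genotype tests and the summed libraries were chosen after seeing the data. Depth limited *Rarb*, *Thrb* and *Ppara*, with at most 8 counts per library.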
